A study of Homo sapiens with 12 samples.

Results

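The costimulatory ligands and receptors of a B-cell lymphoma line were followed under 2 inhibitors of Btk, the kinase that relays the B-cell receptor signal. The set holds 10 of the 19775 genes that have a probe set with only their own symbol, namely the receptors CD28, BTLA, CD40 and TNFRSF14 and the ligands CD80, CD86, ICOSLG, CD274, CD70 and CD58. Members were taken by symbol, and all of their 28 probe sets, the groups of short probes with which the array reads a transcript, were kept. CD28 was selected on its fall in these same arrays, so its values are given as a description and no test was applied to it. The other 9 genes have 25 probe sets.

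The cells were OCI-Ly7, 1 established cell line (diffuse large B-cell lymphoma), treated in culture for 24 hours with PLS-123 at 1 µM, with vehicle, or with ibrutinib at 1 µM or 10 µM. Each of these 4 groups had 3 arrays (Affymetrix Human Genome U133 Plus 2.0, total RNA), marked A, B and C in the labels. PLS-123 and ibrutinib are both covalent, irreversible Btk inhibitors. The labels do not say that the 3 samples of a group came from separate cultures, so p values measure the spread between these samples, which may be technical.

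Costimulation is the second signal of the immune synapse. An antigen-presenting B cell displays CD80 and CD86, which bind CD28 and the inhibitory receptor CTLA4 on T cells, and ICOSLG, which binds ICOS on follicular helper T cells. The T cell answers through CD40 ligand, which engages CD40 on the B cell and drives canonical and non-canonical NF-kB signalling. CD28 itself is best known from T cells and plasma cells and is not a usual marker of germinal centre B cells.

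Values are log2 of the deposited intensities, and differences are on the log2 scale, so that -1 is a halving. A gene is represented by its brightest probe set unless another is named, and "dim" marks a probe set whose mean lies below 3.87, the median of all probe sets. Levels of different probe sets are not compared, since each responds to its target with its own brightness. The median intensity of an array lay between 14.2 and 14.8. Of the 28 probe sets 17 were above the median, and the brightest probe set was dim for CD80, CD274, BTLA and CD58. A gene was called when limma, fitted to all 12 arrays, gave an adjusted p under 0.05.

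Markers of B cells and of other cell types were read against the median of all probe sets. All 9 analysed B-cell markers (of 10 listed) were above the median. They also moved with treatment against vehicle. Of them 3 were higher and 6 lower with PLS-123, where 7.54% of all genes were higher and 12.8% lower. With 10 µM ibrutinib 2 were higher and 4 lower, where 6.71% of all genes were higher and 5.82% lower. With PLS-123 CD22 fell by 2.14, BCL6 fell by 1.45 and MME was higher by 1.69. The summed intensity of the 9 was 16080 to 17040 with PLS-123 and 19320 to 20080 with vehicle, and 16550 to 16860 with 10 µM ibrutinib. The part of this in the results for CD28 and CD86 was not tested. Of 15 T-cell and NK-cell markers 6 were above the median (TRBC1, CD3E, CD247, CD4, CD8B and NCAM1), with CD3D, CD3G and CD2 dim. Of 9 myeloid and dendritic markers 4 were above it (CD1C, ITGAM, CSF1R and ITGAX), with CD14 dim. Of 10 stromal and epithelial markers 4 were above it (COL1A1, PECAM1, VWF and KRT8). Some markers of every list passed the median, so passing it does not by itself show B-cell identity. RNA condition was read from the log2 difference between the 3' and 5' control probe sets of ACTB, which was 2.93 ± 0.20 with PLS-123 and 2.64 ± 0.04 with vehicle (SD, n = 3 each), and 2.67 ± 0.18 and 2.74 ± 0.08 with 1 and 10 µM ibrutinib.

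CD28 and CD86 were low in the same treatments, and the bases around their start sites are printed here for that reason. RefSeq gives a window of 250 bases before to 50 bases after a start site (GRCh38.p14) for 8 of the 10 genes, 9 windows in all, since CD86 has 2. CD28 lies on chromosome 2 (chr2:203706482-203738912) and CD86 on chromosome 3 (chr3:122055362-122121136). Capitals mark matches, on either strand, to 5 motifs of factors downstream of antigen receptors and costimulatory receptors: AP-1 (TGANTCA), FOXO (GTAAACA), the octamer (ATGCAAAT), the NFAT core (GGAAA) and the NF-kB consensus.
CD28, chr2:203706389-203706688, plus strand: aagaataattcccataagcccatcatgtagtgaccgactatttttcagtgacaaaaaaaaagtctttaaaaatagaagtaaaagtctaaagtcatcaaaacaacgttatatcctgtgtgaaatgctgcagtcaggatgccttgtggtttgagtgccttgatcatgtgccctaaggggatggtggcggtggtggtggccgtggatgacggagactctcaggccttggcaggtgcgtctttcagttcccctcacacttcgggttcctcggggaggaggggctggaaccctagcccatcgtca
CD86 upstream start, chr3:122055112-122055411, plus strand: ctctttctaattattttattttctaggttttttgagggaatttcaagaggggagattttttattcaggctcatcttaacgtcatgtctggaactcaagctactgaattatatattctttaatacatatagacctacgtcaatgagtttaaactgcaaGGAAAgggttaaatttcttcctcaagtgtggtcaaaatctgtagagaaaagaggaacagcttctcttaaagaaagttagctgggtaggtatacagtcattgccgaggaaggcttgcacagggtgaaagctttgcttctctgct
CD86 downstream start, chr3:122077534-122077833, plus strand: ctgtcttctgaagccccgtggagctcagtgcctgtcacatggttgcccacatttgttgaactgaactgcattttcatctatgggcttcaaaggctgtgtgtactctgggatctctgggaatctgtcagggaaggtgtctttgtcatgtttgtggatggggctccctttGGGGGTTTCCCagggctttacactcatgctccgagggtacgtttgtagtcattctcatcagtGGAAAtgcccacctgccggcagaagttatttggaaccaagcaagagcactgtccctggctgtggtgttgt
The CD28 window held none of the 5 motifs, which says only that these letters are not in this window. The upstream CD86 window held 1 NFAT core. The downstream CD86 window held 2 matches to the NF-kB consensus, at positions -82 and -81 from the start site, which overlap each other and an NFAT core at -77, and a second NFAT core at -20. Over all 35116 windows of 300 bases, 5.91% held the NF-kB consensus, 61.2% the NFAT core, 7.71% AP-1, 3.42% FOXO and 1.77% the octamer. Among the 9 windows of the set, 2 held the NF-kB consensus (CD86 downstream and TNFRSF14), 7 the NFAT core, and 0 held any of the other 3. A match is a description of letters and not of a binding site.

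CD28, the receptor for CD80 and CD86, was lower in 2 of the 3 treatments, at about 10% of the vehicle level. Its log2 intensity was 4.91, 4.54 and 4.88 in the PLS-123 arrays, against 8.12, 8.0 and 8.09 in the vehicle arrays. With ibrutinib it was 8.13, 7.93 and 7.95 at 1 µM and 4.89, 4.88 and 4.86 at 10 µM. The arrays of PLS-123 and of 10 µM ibrutinib lay far below all vehicle arrays, while those of 1 µM ibrutinib overlapped them.

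The mean CD28 difference from vehicle was -3.30 with PLS-123, -0.07 with 1 µM ibrutinib and -3.19 with 10 µM ibrutinib, which leaves 10.2%, 95.4% and 10.9% of the vehicle level. At the matched dose of 1 µM, the PLS-123 arrays were at 10.7% of the ibrutinib arrays. Ranked among 19775 genes by size of fall, CD28 was number 7 with PLS-123 and number 6 with 10 µM ibrutinib. These ranks restate what CD28 was chosen by and are no independent evidence. In a bulk sample, fewer cells with the transcript and less transcript per cell cannot be told apart.

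The other CD28 probe sets gave smaller differences in the same direction. Probe set 211861_x_at differed from vehicle by -2.24 with PLS-123, 0.02 with 1 µM ibrutinib and -2.02 with 10 µM ibrutinib. Probe set 211856_x_at gave -1.83, -0.04 and -2.30 in the same order, with a wide spread between PLS-123 arrays, which read 4.14, 5.50 and 4.96. The suffix _x_at marks probe sets with probes that can also match other transcripts. No array of PLS-123 or of 10 µM ibrutinib reached a vehicle array in any of the 3 probe sets. CD28 with the median over its probe sets in place of the brightest was -2.18 with PLS-123 and -2.30 with 10 µM ibrutinib.

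CD28 is a T-cell gene. Of the 15 analysed T-cell and NK-cell markers 1 was called higher and 0 lower with PLS-123, and likewise with 10 µM ibrutinib. Over all genes 7.54% were higher and 12.8% lower with PLS-123, and 6.71% and 5.82% with 10 µM ibrutinib. The count of higher markers is near this background. The called gene was TRBC1, a T-cell receptor constant segment, which was higher by 0.48 with PLS-123 and by 0.46 with 10 µM ibrutinib. The summed intensity of the list was 2309 to 2429 with PLS-123 and 1695 to 1802 with vehicle, and 1752 to 1874 and 2276 to 2426 with 1 and 10 µM ibrutinib, and TRBC1 made up most of it. Without TRBC1 the other 14 genes summed to 178 to 217 with PLS-123 and 179 to 207 with vehicle, which overlapped. TRBC1 was left out as the called gene, so the 14 are uncalled by selection and their overlap is no separate result. CD3E, a signalling chain of the T-cell receptor, read 4.19, 4.42 and 4.44 in the PLS-123 arrays and 4.07, 4.14 and 4.22 in the vehicle arrays.

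By Pearson correlation over the 12 arrays, the genes most like CD28 were RASGRP3, a guanine nucleotide exchange factor for Ras (r = 0.997), MBD2, a reader of methylated DNA (r = 0.996), and LIMA1, an actin-binding protein (r = 0.996). RASGRP3 differed from vehicle by -2.20 with PLS-123 and by -1.98 with 10 µM ibrutinib. The 12 arrays fall into 2 levels of CD28, so any gene that follows the same division has a high r, and no p is given.

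**Figure D1:**
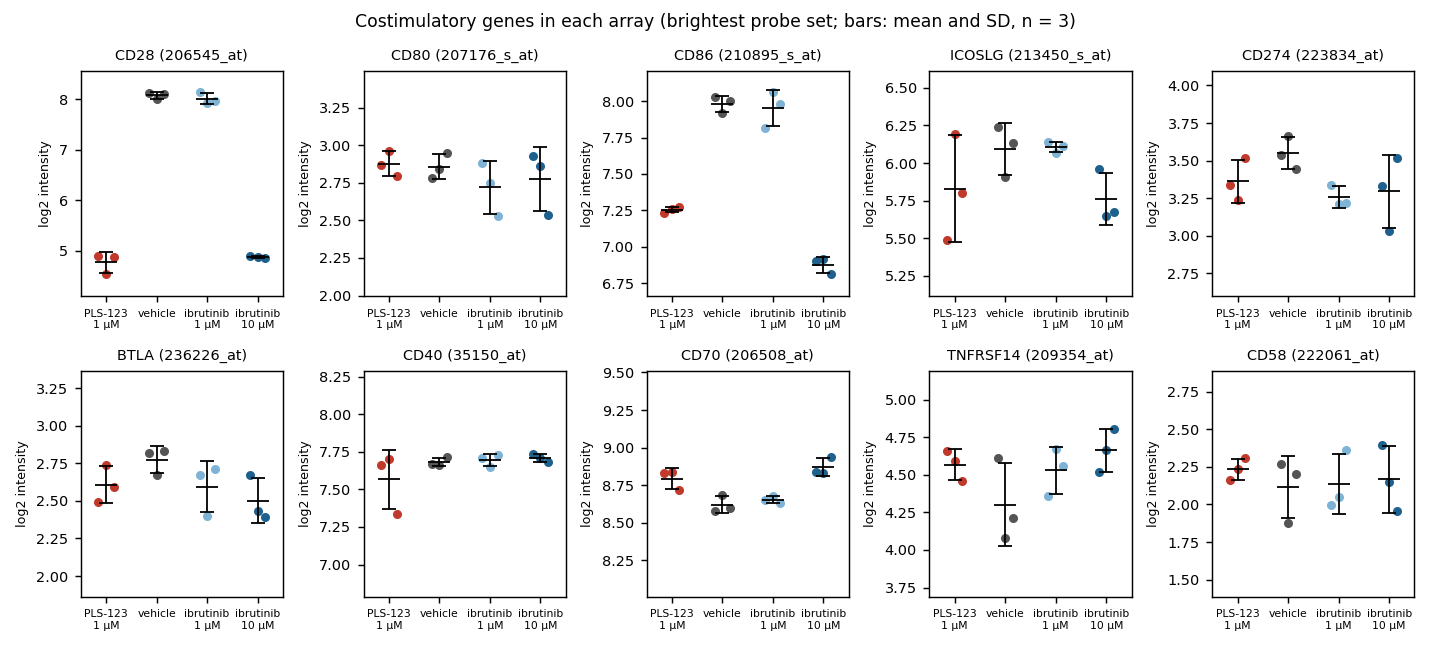
Log2 intensity of the brightest probe set of each of the 10 genes in every array, with groups in the order PLS-123 1 µM, vehicle, ibrutinib 1 µM and ibrutinib 10 µM. Points are arrays and bars are the mean and SD of 3. The vertical scale differs between panels. CD28 and CD86 sit apart from vehicle with PLS-123 and with 10 µM ibrutinib, and the panels of the other 8 genes span smaller distances.

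Among the 9 tested genes, PLS-123 against vehicle gave 1 call, CD86 lower, and 0 genes higher. Over all genes 12.8% were called lower and 7.54% higher in this comparison, so the count for the set is near the background. By unadjusted p, 2 of the 9 genes and 7 of the 25 probe sets were under 0.05, where 15812 of all 54613 probe sets were. The median difference of the 9 genes was -0.12, and -0.04 over all genes. By probe set, 5 of 25 were called lower and 1 higher, against 10.4% and 6.36% of all probe sets. The 5 were all 3 of CD86 and 2 of ICOSLG.

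CD86, the ligand that activated B cells display to CD28 and CTLA4, was lower with PLS-123 and with 10 µM ibrutinib, to about 60% and 46% of vehicle. It read 7.23, 7.26 and 7.27 in the PLS-123 arrays and 8.03, 7.92 and 8.0 in the vehicle arrays. With ibrutinib it read 7.82, 8.06 and 7.98 at 1 µM and 6.90, 6.91 and 6.81 at 10 µM. The 3 groups of PLS-123, 10 µM ibrutinib and vehicle did not overlap, and 1 µM ibrutinib overlapped vehicle.

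CD86 fell by 0.73 ± 0.08 (SE) with PLS-123 (60.4% of vehicle, limma adjusted p = 3.37e-05). It differed by -0.03 with 1 µM ibrutinib (95% interval -0.21 to 0.15, limma adjusted p = 0.986), and fell by 1.11 ± 0.08 with 10 µM ibrutinib (46.4% of vehicle, limma adjusted p = 6.83e-07). Adjusted for the ACTB difference, CD86 stood at -0.65 with PLS-123 (limma adjusted p = 0.00254) and at -1.08 with 10 µM ibrutinib. CD86 kept its call in all alternatives of both comparisons.

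The other CD86 probe sets were called in the same direction. Probe set 205685_at fell by 0.50 with PLS-123 (limma adjusted p = 0.00359) and by 0.95 with 10 µM ibrutinib. Probe set 205686_s_at fell by 0.55 with PLS-123 (limma adjusted p = 0.0136) and by 0.97 with 10 µM ibrutinib. In each of the 3 probe sets the fall was larger with 10 µM ibrutinib than with 1 µM PLS-123, but these doses differ, and the difference between the compounds was not tested across doses. Both comparisons also use the same vehicle arrays.

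CD86 is also a dendritic-cell and macrophage gene. Of 9 analysed markers of those cells the only call was CD1C, a lipid-presenting molecule also found on some B cells, which fell by 2.21 with PLS-123 and by 2.14 with 10 µM ibrutinib. Over all genes 12.8% were lower with PLS-123 and 5.82% with 10 µM ibrutinib, so 1 of 9 with PLS-123 is near the background. The summed intensity of the 9 markers was 141 to 155 with PLS-123 and 351.1 to 387.8 with vehicle, and 318 to 380 and 135 to 166 with 1 and 10 µM ibrutinib. CD14 read 2.84 to 2.99 in the PLS-123 arrays and 2.92 to 3.34 in the vehicle arrays, dim in both. Without CD1C the other 8 genes summed to 83.5 to 86.4 with PLS-123 and 83.7 to 91.0 with vehicle, which overlapped. With 10 µM ibrutinib they summed to 79.3 to 87.8. CD1C was left out as the called gene, so the 8 are uncalled by selection and their overlap is no separate result.

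The genes most like CD86 over the 12 arrays were TFEB, a transcription factor of lysosomal genes (r = 0.989), ATP5MC1, a subunit of ATP synthase (r = 0.987), and RFTN1, a lipid raft protein of B cells (r = 0.986). TFEB differed from vehicle by -0.69 with PLS-123 and by -0.85 with 10 µM ibrutinib. Having been picked by its likeness to CD86 over these arrays, it must share the pattern, which is no separate result.

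CD80, the other ligand of CD28 and CTLA4, was dim in all 3 of its probe sets. The brightest read 2.87, 2.96 and 2.80 in the PLS-123 arrays and 2.78, 2.84 and 2.95 in the vehicle arrays, and the groups overlapped. The difference was 0.02 with PLS-123 (95% interval -0.23 to 0.27) and -0.08 with 10 µM ibrutinib (95% interval -0.33 to 0.17). Neither was called, and neither were those of the other 2 CD80 probe sets.

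**Figure D2:**
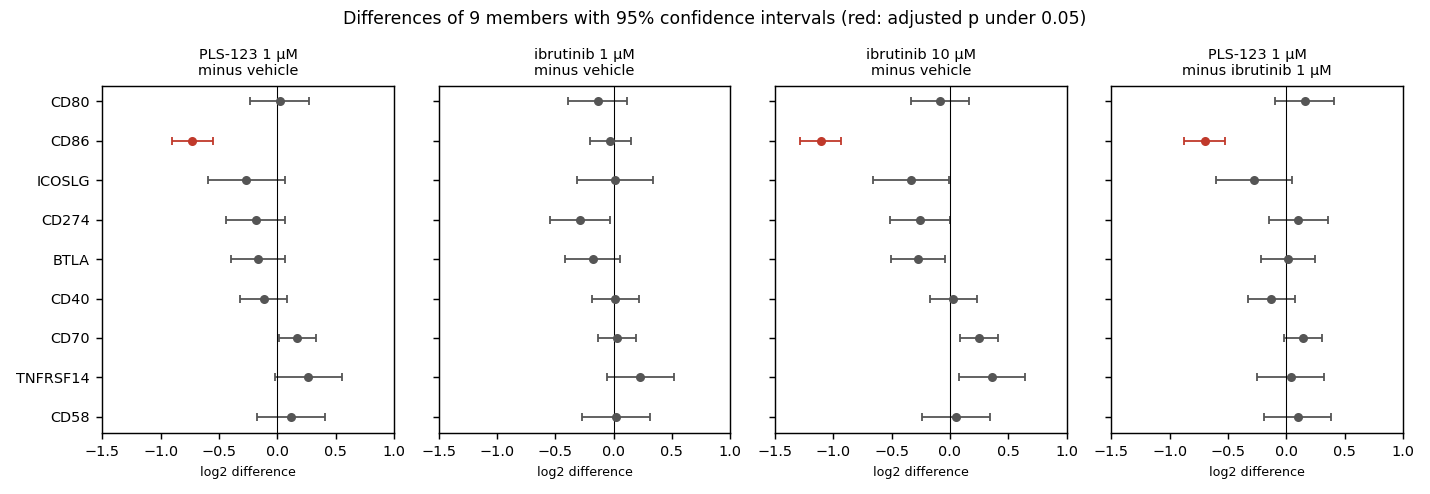
Log2 difference and 95% confidence interval of the brightest probe set of the 9 tested genes (CD28 is left out, as it was not tested), in 4 comparisons from left to right: PLS-123 minus vehicle, 1 µM ibrutinib minus vehicle, 10 µM ibrutinib minus vehicle, and PLS-123 minus 1 µM ibrutinib. Red marks an adjusted p under 0.05, which is met by CD86 in all panels but that of 1 µM ibrutinib minus vehicle, at -0.73, -1.11 and -0.70.

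ICOSLG, the ligand of ICOS, gave different answers by probe set. Its gene lies on chromosome 21 (chr21:44216981-44240943). The brightest probe set, 213450_s_at, read 5.49, 6.20 and 5.80 in the PLS-123 arrays and 6.24, 5.90 and 6.13 in the vehicle arrays. Array B of PLS-123 reached into the vehicle range, and the difference of -0.27 was not called (95% interval -0.59 to 0.06, limma adjusted p = 0.277). Without that array the difference was -0.45 (limma adjusted p = 0.0391).

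Probe set 228976_at of ICOSLG separated the groups. It read 5.23, 5.08 and 4.97 in the PLS-123 arrays and 5.82, 5.59 and 5.81 in the vehicle arrays, and 5.44, 5.33 and 5.36 with 10 µM ibrutinib. It fell by 0.65 with PLS-123 (limma adjusted p = 0.000267) and by 0.36 with 10 µM ibrutinib (limma adjusted p = 0.0225), and with 1 µM ibrutinib it differed by 0.05 (limma adjusted p = 0.978).

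Of the remaining ICOSLG probe sets, 211197_s_at fell by 0.41 with PLS-123 (limma adjusted p = 0.035), while 211198_s_at was at 0.16 and 211199_s_at at -0.27, neither called. With 10 µM ibrutinib these 3 stood at -0.31, -0.07 and -0.50, and none was called. When the median over the probe sets represented the gene, ICOSLG fell by 0.56 with PLS-123 (limma adjusted p = 0.00103). Of the 5 probe sets, 4 lay below vehicle with PLS-123 and all 5 with 10 µM ibrutinib, but the sizes ran widely.

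CD274, the inhibitory ligand PD-L1, was dim in both of its probe sets, and these went opposite ways. Probe set 223834_at read 3.34, 3.24 and 3.52 with PLS-123 and 3.54, 3.66 and 3.45 with vehicle, a difference of -0.19 that was not called (limma adjusted p = 0.334). Probe set 227458_at read 2.15, 2.50 and 2.58 with PLS-123 and 1.89, 2.04 and 2.16 with vehicle, a difference of 0.38 that was called higher (limma adjusted p = 0.0448) although the arrays overlapped. This was the only probe set of the 25 called higher.

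BTLA, an inhibitory receptor that binds TNFRSF14, was dim as well. It read 2.49, 2.74 and 2.59 with PLS-123 and 2.82, 2.67 and 2.83 with vehicle, and 2.67, 2.43 and 2.40 with 10 µM ibrutinib. The groups overlapped, and the differences of -0.17 with PLS-123 and -0.27 with 10 µM ibrutinib were not called (limma adjusted p = 0.354 and 0.155).

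TNFRSF14 (HVEM), the TNF receptor that BTLA and LIGHT bind, gave differences that hung on 1 vehicle array. It read 4.66, 4.59 and 4.46 with PLS-123 and 4.61, 4.08 and 4.21 with vehicle, and 4.52, 4.67 and 4.80 with 10 µM ibrutinib. Array A of vehicle lay among the treated arrays. The differences of 0.27 with PLS-123 and 0.36 with 10 µM ibrutinib were not called (limma adjusted p = 0.208 and 0.119). Without vehicle array A they were 0.42 and 0.52, and both were called (limma adjusted p = 0.0354 and 0.0174).

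CD40, the B-cell receptor for T-cell help, showed no call in any of its 4 probe sets. Its brightest read 7.66, 7.70 and 7.34 with PLS-123 and 7.67, 7.66 and 7.71 with vehicle, and 7.74, 7.71 and 7.68 with 10 µM ibrutinib. Array C of PLS-123 stood below all the other arrays. The difference was -0.12 with PLS-123 (95% interval -0.32 to 0.09) and 0.03 with 10 µM ibrutinib (95% interval -0.17 to 0.23). Neither was called (limma adjusted p = 0.465 and 0.915). Probe sets 205153_s_at, 215346_at and 222292_at also lay below vehicle with PLS-123, by 0.19, 0.11 and 0.25. With 10 µM ibrutinib they stood at 0.07, 0.14 and -0.09. In 205153_s_at all PLS-123 arrays lay below all vehicle arrays, and in 215346_at all 10 µM ibrutinib arrays lay above them.

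CD70, the ligand of the T-cell and memory B-cell receptor CD27, lay above all vehicle arrays in every array of PLS-123 and of 10 µM ibrutinib, by a small step that was not called. It read 8.83, 8.84 and 8.72 with PLS-123 and 8.58, 8.68 and 8.60 with vehicle, and 8.84, 8.83 and 8.94 with 10 µM ibrutinib. With 1 µM ibrutinib it read 8.65, 8.68 and 8.63, which overlapped vehicle. The differences of 0.17 and 0.25 did not pass the threshold (limma adjusted p = 0.145 and 0.0537). With limma fitted again without dim probe sets both passed (limma adjusted p = 0.0484 and 0.0125).

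CD58, the adhesion ligand of CD2, was dim in all 5 of its probe sets. The brightest read 2.16, 2.23 and 2.31 with PLS-123 and 2.27, 1.88 and 2.20 with vehicle. The groups overlapped, and no CD58 probe set was called in any comparison.

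**Figure D3:**
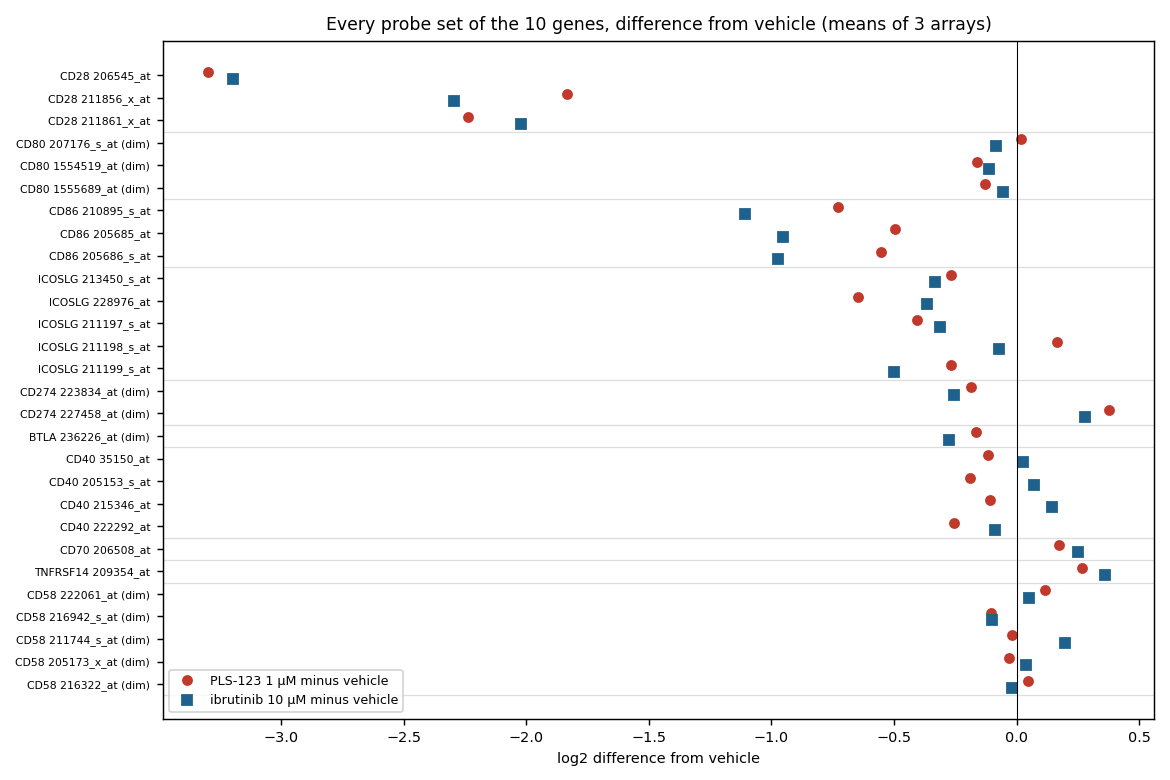
Log2 difference from vehicle (means of 3 arrays) of every probe set of the 10 genes, with PLS-123 at 1 µM as red circles and ibrutinib at 10 µM as blue squares. Dim marks a mean below the median of all probe sets. The 3 probe sets of CD28 lie between -3.30 and -1.83, the 3 of CD86 between -1.11 and -0.50, and those of CD40, CD80 and CD58 between -0.25 and 0.20.

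Ibrutinib at 1 µM gave no call against vehicle in any of the 9 genes or 25 probe sets, and the share of all genes and of all probe sets called was 0% in each direction. By unadjusted p under 0.05 there were 1 gene (CD274, -0.29) and 2 probe sets, both of CD274 and of opposite sign. The median of the 9 genes was 0.01, and over all genes -0.01.

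Ibrutinib at 10 µM against vehicle gave 1 gene lower, CD86, and 0 higher, where 5.82% of all genes were lower and 6.71% higher. By unadjusted p, 5 of the 9 genes and 11 of the 25 probe sets were under 0.05, where 11657 of all 54613 probe sets were. By probe set 4 of 25 were lower, all 3 of CD86 and 1 of ICOSLG, and 0 higher, against 4.62% and 5.39% of all probe sets. The median of the 9 genes was -0.08, and -0.02 over all genes.

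PLS-123 and ibrutinib were compared at 1 matched dose, 1 µM. In the brightest CD86 probe set their difference was close to that between PLS-123 and vehicle. In 205685_at PLS-123 stood at -0.38 from 1 µM ibrutinib and -0.50 from vehicle, and in 205686_s_at at -0.77 and -0.55. CD86 was lower with PLS-123, at -0.70 (95% interval -0.88 to -0.52, limma adjusted p = 6.16e-05), and all 3 PLS-123 arrays lay below all 3 ibrutinib arrays. It was the 1 gene lower of 9, with 0 higher, where 10.1% of all genes were lower and 5.78% higher. By probe set 4 were lower and 0 higher, against 7.93% and 4.58% of all probe sets. These were the 3 of CD86 and 228976_at of ICOSLG, which stood at -0.70 (limma adjusted p = 0.00019).

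For the other 8 genes the 2 compounds did not differ beyond the threshold at 1 µM. The intervals of their difference were -0.33 to 0.07 for CD40, -0.02 to 0.30 for CD70, -0.25 to 0.32 for TNFRSF14 and -0.61 to 0.05 for ICOSLG. For the dim genes they were -0.09 to 0.41 for CD80, -0.15 to 0.36 for CD274, -0.22 to 0.25 for BTLA and -0.19 to 0.39 for CD58. Differences within these intervals cannot be separated from 0 with 3 arrays a group.

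Between the doses of ibrutinib, CD86 was again the 1 gene lower, at -1.08 for 10 µM minus 1 µM (limma adjusted p = 1.17e-06), with 0 higher. Over all genes 4.46% were lower and 5.27% higher. By probe set 4 were lower and 0 higher, against 3.39% and 4.22% of all probe sets, and they were again the 3 of CD86 and 228976_at of ICOSLG (-0.41, limma adjusted p = 0.0131). CD70 was at 0.22 in this comparison (limma adjusted p = 0.117).

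The wider pathway was read from 5 lists of partners, whose counts stand beside 7.54% of all genes higher and 12.8% lower with PLS-123, and 6.71% higher and 5.82% lower with 10 µM ibrutinib. Of 9 analysed genes of the B7 and CD28 family outside the set, 1 was called with PLS-123, VTCN1 (B7-H4), a dim gene at 0.47 (limma adjusted p = 0.0107), and 0 with 10 µM ibrutinib. Neither CTLA4 nor ICOS, which bind CD86 and ICOSLG, was called, and both were dim. The median of the list was -0.10 with PLS-123, and -0.04 over all genes.

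Of 15 TNF-family costimulators, 2 were higher and 2 lower with PLS-123, and 2 were higher and 3 lower with 10 µM ibrutinib, so that the share with PLS-123 is near that of all genes. Its median was -0.13 with PLS-123 and -0.06 with 10 µM ibrutinib. CD27, the receptor of CD70, read 10.11, 10.18 and 10.09 in the PLS-123 arrays and 8.92, 8.93 and 8.86 in the vehicle arrays. It was higher by 1.22 with PLS-123 (limma adjusted p = 1.91e-07) and by 1.12 with 10 µM ibrutinib. CD70 itself differed by 0.17 and 0.25. LTB, a subunit of membrane lymphotoxin, was higher by 1.17 and 1.27, and TNFSF8, the ligand of CD30, fell by 1.05 and 0.86, each with PLS-123 first and 10 µM ibrutinib second.

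Of 21 genes of synapse adhesion and other checkpoints, 0 were higher and 4 lower with each of the 2 treatments, against 12.8% of all genes lower with PLS-123 and 5.82% with 10 µM ibrutinib. The median of the list was 0.01 with PLS-123, above the -0.04 of all genes, and -0.09 with 10 µM ibrutinib, below the -0.02 of all genes. CD48, the ligand of 2B4, fell by 1.55 with PLS-123 (limma adjusted p = 1.99e-08) and by 1.23 with 10 µM ibrutinib. HAVCR2 (TIM-3) fell by 0.86 and 0.69, and ICAM2, a ligand of the integrin LFA-1, by 0.66 and 0.47. CD58, of the same adhesion group, was dim.

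Downstream of CD40, 1 of 9 genes of TRAF adaptors and non-canonical NF-kB was higher and 3 lower with PLS-123, and 2 were higher and 3 lower with 10 µM ibrutinib, where 12.8% and 5.82% of all genes were lower. The median of the list went the other way, at 0.12 with PLS-123 and 0.17 with 10 µM ibrutinib, above the -0.04 and -0.02 of all genes. TRAF6, an adaptor of CD40, was higher by 0.70 and 0.69 in the same order, and TRAF3, an inhibitor of the non-canonical pathway, was at 0.12 (not called) and higher by 0.55. RELB, the non-canonical NF-kB subunit, read 5.86, 5.84 and 5.70 in the PLS-123 arrays and 6.98, 7.0 and 6.97 in the vehicle arrays. It fell by 1.19 with PLS-123 (limma adjusted p = 1.5e-06) and by 0.67 with 10 µM ibrutinib. TRAF1 fell by 1.33 and 0.79, and NFKB2, the precursor of p52, by 0.74 and 0.37. CD40 itself differed by -0.12 and 0.03.

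Of 10 genes that act on the CD28 tail, 1 was higher (PIK3CD, a PI3K catalytic subunit, by 0.31 and 0.48) and 3 lower with each treatment, where 12.8% of all genes were lower with PLS-123 and 5.82% with 10 µM ibrutinib. With PLS-123 and then 10 µM ibrutinib the list had a median of -0.13 and -0.06. VAV1, a guanine nucleotide exchange factor for Rac, fell by 1.19 with PLS-123 (limma adjusted p = 1.42e-07) and by 1.12 with 10 µM ibrutinib. LCK, a Src-family kinase, fell by 0.69 and 0.78, and MALT1, a paracaspase of NF-kB signalling, by 0.67 and 0.28. The same proteins also serve the B-cell receptor. With 1 µM ibrutinib none of the genes of the 5 lists was called.

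**Figure D4:**
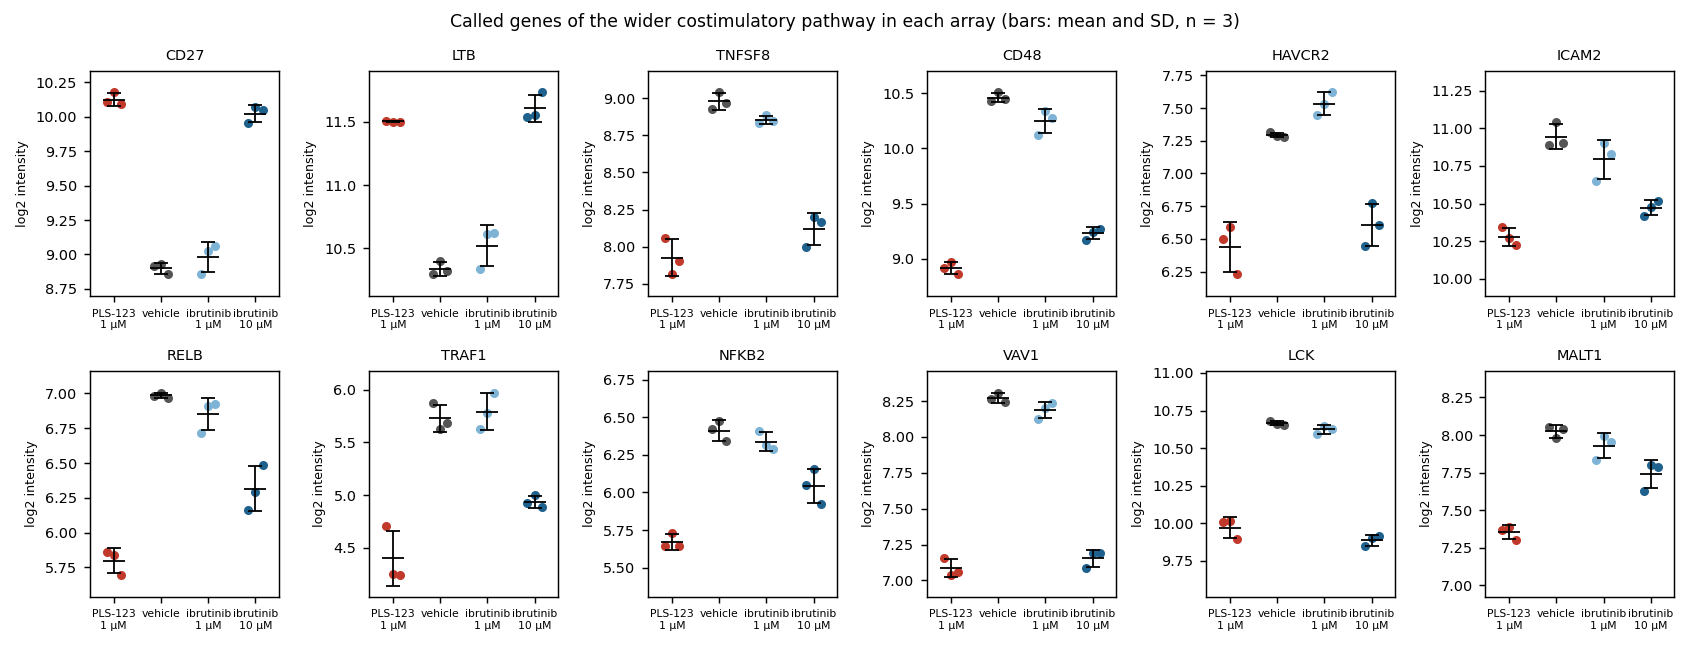
Log2 intensity in every array of 12 pathway genes above the median of all probe sets. These are the called genes, up to 3 per list, with the smallest adjusted p for PLS-123 against vehicle. Groups are in the order PLS-123 1 µM, vehicle, ibrutinib 1 µM and ibrutinib 10 µM. Points are arrays and bars are the mean and SD of 3, and the vertical scale differs between panels. CD27 and LTB lie above vehicle with PLS-123 and with 10 µM ibrutinib, and the other 10 lie below it. TRAF6 and PIK3CD, higher with both treatments, and TRAF3, higher with 10 µM ibrutinib, are named in the text but not shown.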

How the data were processed

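OCI-Ly7 cells were profiled on 12 arrays in 4 groups of 3. According to the submitters' processing notes the authors normalized the arrays by RMA (version not stated), and the values they deposited are linear intensities, from 2.09 to 15751, which were converted to log2 with no pseudocount. The 62 control probe sets among the 54675 were left out, and 41091 of the 54613 that remained carry only 1 symbol in the annotation. A gene is its brightest probe set, and none of the 28 probe sets of the members is shared with another symbol. The number of arrays limits the precision.

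limma 3.58.1 (R 4.3.3, lmFit and eBayes) was fitted with 1 mean per group (8 residual degrees of freedom), with 5 comparisons and Benjamini-Hochberg adjustment over all tested probe sets of each. The fit was tested on simulated data. Tests are two-sided. The members and lists were chosen with earlier results of these data known. The text names every member, up to 3 called genes per list with the smallest adjusted p for PLS-123 against vehicle, and the 3 genes most correlated with CD28 and with each member called with PLS-123. Names given beyond this rule were chosen after their values were seen. Motifs were searched in the RefSeq start-site windows. The alternatives were another centring, quantile normalization, a filter on dim probe sets, a Student test, and limma on 2 groups or with a trend. Further alternatives were the sample letter as a block, the ACTB difference as a covariate and the median over probe sets. The last were a 1.5-fold threshold and each array left out in turn. The other centring used 100 normalization control probe sets, which were among those tested and not among the control probe sets left out.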

Additional observations from a re-analysis of the deposited data

How the results depend on the processing

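CD86 kept its call and direction in all alternatives of its 4 called comparisons. Over 1130 values of a gene in a comparison under an alternative, 1111 counted as unchanged. For a tested gene this means the same side of the threshold, and for CD28 a shift smaller than the larger SD of the 2 groups. These 1111 include 46 values, not called, that changed sign. Of the rest 15 passed the threshold newly, 4 moved (all CD28, with the median over its probe sets) and 0 reversed. The count of called genes (1 with PLS-123, 0 with 1 µM ibrutinib, 1 with 10 µM ibrutinib, each against vehicle, and 1 in each of the other 2 comparisons) became 2 for PLS-123 against vehicle under quantile normalization, without dim probe sets and with the median over probe sets. For 10 µM ibrutinib against vehicle it became 3 with the median over probe sets. It became 2 there with centring on the mean of the normalization control probe sets, without dim probe sets and with an intensity trend. For 10 against 1 µM ibrutinib it became 2 without dim probe sets and with the trend, and for PLS-123 against 1 µM ibrutinib 2 with the median over probe sets. The added genes were CD70 and ICOSLG.

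With each array left out, the count was 1 to 2 for PLS-123 against vehicle, 1 to 2 for 10 µM ibrutinib against vehicle and 1 to 2 for PLS-123 against 1 µM ibrutinib. The added gene was TNFRSF14 without vehicle array A (0.42, limma adjusted p = 0.0354, and 0.52, limma adjusted p = 0.0174) and ICOSLG without PLS-123 array B (-0.45, limma adjusted p = 0.0391, and -0.46, limma adjusted p = 0.0446). With the letter as a replicate block the counts were 1, 0, 1, 1 and 1, and no call changed. The labels do not say whether the letters pair samples. Residuals of same-lettered arrays correlated between -0.255 and 0.224. Arrays of different letters were not compared, so this does not settle whether the letters pair.

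Of all probe sets called in PLS-123 against 1 µM ibrutinib, 63.4% were lower, against 51.2% with centring on the mean and 53% with quantile normalization. Centring on the median of the normalization control probe sets was chosen after seeing the data. With it 60.4% of the calls in PLS-123 against 1 µM ibrutinib were lower. In PLS-123 against vehicle it gave 72.5% lower, where the main fit gave 62%, centring on the mean 53.7% and quantile normalization 52.4%. With the median centring no member changed its call. The cause was not tested.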
